A study of Caenorhabditis elegans with 2 samples.

Results

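The data concern 40 genes of egg production in the nematode Caenorhabditis elegans, out of 19973 protein-coding genes. The question was at which of their promoters a tagged protein gave a peak. The genes were taken by name from the annotation in 4 classes: 22 RNA regulators of the germline, oocyte and early embryo, 5 genes of the egg surface, 12 genes of meiotic chromosomes, and the Notch receptor gene glp-1. A gene was counted as bound when a peak summit lay between 1000 bp upstream and 200 bp downstream of any of its transcript starts. All 40 names were found in the annotation.

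The worms were of strain RW12180, whose genotype is given as st12180[dox-1::TY1::EGFP::3xFLAG] I: a chromosome I gene, dox-1, carries the tag, inserted by CRISPR at a target the labels spell dxbp-1. Animals synchronised by bleaching and L1 starvation were harvested whole as young adults at 66 hours, and the fusion protein was precipitated from chromatin sonicated to 200 to 800 bp with an antibody against GFP. The 2 biological replicates form the only group, so values describe 1 strain at 1 stage, and whether a peak depends on the tagged protein was not tested. Whole animals hold germline and somatic cells together, so the tissue in which a promoter was bound cannot be told apart.

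The fate of germ cells in this species rests largely on proteins that hold mRNAs silent or release them for translation. RNA regulators of the PUF, KH, Nanos and CCCH zinc finger families act in sequence, from the stem cells at the end of the gonad through meiosis and oocyte growth to the first divisions of the embryo. Meiotic chromosome proteins pair the homologous chromosomes, hold them in the synaptonemal complex and recombine them, and the egg surface proteins take up yolk, meet the sperm and build the eggshell.

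The peak windows below are those of the bound gene with the highest signal in each class together with the next strongest bound genes on the autosomes II to V, and they show what the summits look like. Each is the summit with 50 bp on each side, on ce11 (WBcel235), from the RefSeq genome, read 5′ to 3′ along the strand of its gene. The windows are chrIV:13512303-13512403 on the minus strand for puf-3, chrIV:6421331-6421431 on the plus strand for puf-11, chrIII:5727987-5728087 on the plus strand for egg-1, and chrV:8413758-8413858 on the plus strand for pos-1. The others are chrIII:7498463-7498563 on the minus strand for cgh-1, chrIV:5469908-5470008 on the plus strand for rme-2, and chrIV:10284691-10284791 on the minus strand for rad-51. Capitals mark matches, on either strand, to the words searched. They were the E2F-type word TTCCCGC, the word CCACGT known from genes of the unfolded protein response, the repeat GAGAGA, the TATA-type word TATAAA, and a pair of words of the cell cycle homology region, first TTTGAA and second TTCGAA.
puf-3: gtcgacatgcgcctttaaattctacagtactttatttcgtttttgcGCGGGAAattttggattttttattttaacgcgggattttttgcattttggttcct
puf-11: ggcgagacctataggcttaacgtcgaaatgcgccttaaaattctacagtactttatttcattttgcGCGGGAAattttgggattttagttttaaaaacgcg
egg-1: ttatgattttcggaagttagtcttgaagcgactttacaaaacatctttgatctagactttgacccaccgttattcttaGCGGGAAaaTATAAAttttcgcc
pos-1: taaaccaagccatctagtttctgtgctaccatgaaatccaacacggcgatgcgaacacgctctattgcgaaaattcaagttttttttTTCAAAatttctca
cgh-1: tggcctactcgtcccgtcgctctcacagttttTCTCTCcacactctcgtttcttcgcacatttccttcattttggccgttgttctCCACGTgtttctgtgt
rme-2: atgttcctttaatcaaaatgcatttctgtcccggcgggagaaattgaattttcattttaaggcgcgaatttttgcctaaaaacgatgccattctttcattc
rad-51: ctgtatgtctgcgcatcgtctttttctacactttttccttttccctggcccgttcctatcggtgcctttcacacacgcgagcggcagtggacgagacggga

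A larger share of the RNA regulators was bound than of protein-coding genes in general. The share of the 12 meiotic chromosome members was near that background, but 30% of 50 further meiotic genes were bound, as given below. In the conservative peak set, made by the authors from both samples, 15 of the 40 genes were bound, or 37.5% with a Wilson 95% interval of 24.2 to 53.0. The share over all protein-coding genes was 10.9% (2184 of 19973). The bound members were 12 of 22 RNA regulators (54.5%, interval 34.7 to 73.1), 2 of 5 egg surface genes (40%, interval 11.8 to 76.9), 1 of 12 meiotic chromosome genes (8.33%, interval 1.49 to 35.4), and not glp-1. The intervals cover counting error only, genes are not replicates, and no test between lists was run. Members and classes were chosen with earlier results of these data known. Both small counts changed with the peak list: 4 of 5 egg surface genes passed the threshold of replicate 2 alone, and 2 of 12 meiotic genes (16.7%) that of either replicate, as in the larger set from both samples. The conservative interval of the meiotic genes holds the share of all genes, and that of the egg surface genes begins just above it. Given how the genes were chosen, neither interval is a test against that share.

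**Figure D1:**
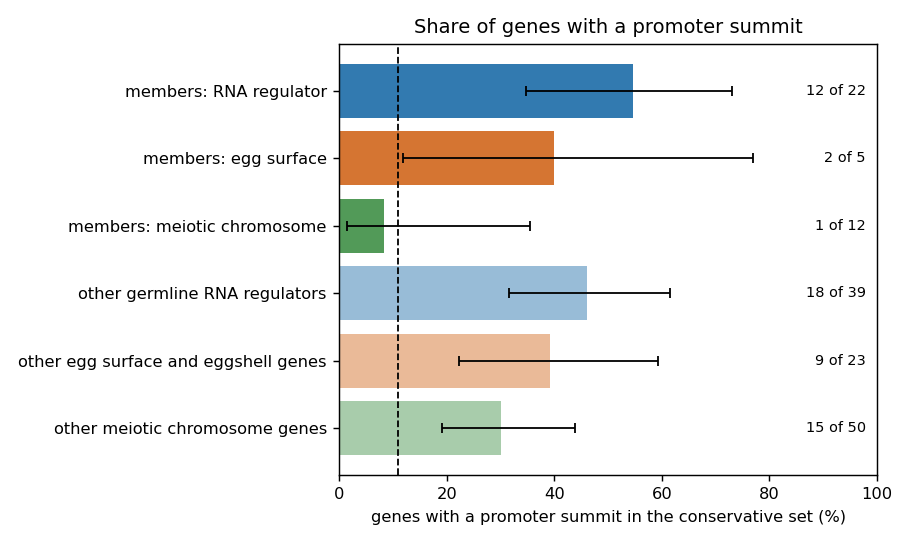
Share of genes with a promoter summit in the conservative set, in percent on the horizontal axis, for the 3 larger classes (solid bars) and for the lists of other genes of the same kinds (pale bars), with Wilson 95% intervals and the counts at the right. The dashed line is the share of all protein-coding genes, 10.9%, which lies inside the interval of the 12 meiotic chromosome genes and to the left of the other intervals. The intervals are no test against that line.

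Other peak sets gave like counts of members beside their own backgrounds. The larger set from both samples held 18 members (13.7% of all genes), the thresholded list of replicate 1 held 15 (10.2%) and that of replicate 2 held 17 (10.3%). Of conservative peaks with at least the median signal of the set, 9 members had 1 (6.8% of all genes), 6 of them RNA regulators. A narrow window of 500 bp upstream to 100 bp downstream left 13 (8.48%), a wide one of 2000 bp upstream to 500 bp downstream 15 (14.6%), and overlap of the peak interval in place of the summit 15 (11.9%). In all, 18 members were in none of the thresholded sets. The matching count over all genes was not made, so 18 cannot be read as many or few. Each of those sets held 10.2 to 13.7% of all genes.

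Bound members did not stand out by strength. The authors' signal value at the highest promoter summit had a median of 297 over the 15 bound members and 296 over all 2184 bound genes. Of the 15, 8 were above the median of all bound genes and 2 above their 75th percentile. The strongest, pos-1, stood 367th of the 2184 bound genes, and the weakest, car-1, stood 2177th.

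Signal was then read in each replicate as the highest summit in the promoter window of its ranked list, which comes before any threshold on reproducibility. The 2 replicates can have their highest summits at different places in a window. Signal is as the authors' peak caller wrote it, with no stated scaling between samples. A ranked summit alone is weak evidence, since 44.1% of all genes had one in replicate 1 and 53.3% in replicate 2. Of the members, 29 had one in replicate 1 and 37 in replicate 2. All 15 bound members had one in both, from 85.1 to 215 in replicate 1 and from 87.0 to 326 in replicate 2. The median over all genes with a ranked summit was 52.0 and 50.4. Bound members were called from these same samples, so their higher values are not independent of the call.

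**Figure D2:**
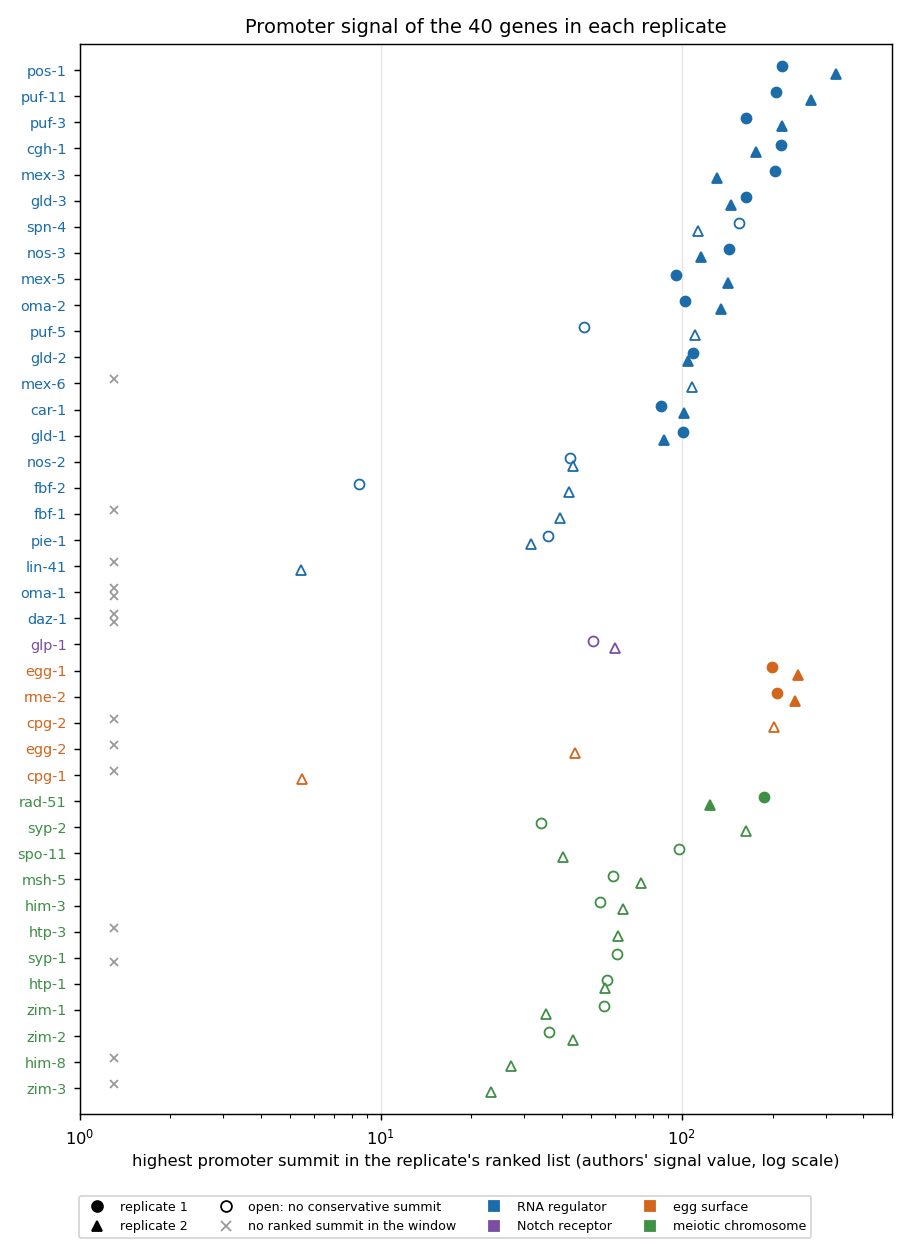
Highest promoter summit of each of the 40 genes in replicate 1 (circles) and replicate 2 (triangles), as the authors' signal on a log axis, with filled symbols for the 15 genes bound in the conservative set and grey crosses where a ranked list held no summit in the window. The filled symbols all lie at or above 85.1, while open symbols reach 154 in replicate 1, at spn-4, and 202 in replicate 2, at cpg-2. Filled genes were called from these same samples.

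Among regulators of germline stem cells and of the entry into meiosis, 4 of 7 were bound. The same 4 passed the threshold of replicate 1, but in replicate 2 alone only gld-3 did, so the count differs between the lists of the replicates. In the ranked list of replicate 2, gld-1, gld-2 and nos-3 still had summits, at 87.0, 105 and 116. The strongest was gld-3, which encodes a KH domain protein and partner of a cytoplasmic poly(A) polymerase, with a signal of 163 in replicate 1 and 146 in replicate 2 (154 ± 12.2, SD, n = 2). The polymerase itself is encoded by gld-2, which had 109 and 105 (107 ± 3.04, SD, n = 2), the closest match between replicates of any bound member. At nos-3, a Nanos homologue, the values were 144 and 116 (129.6 ± 19.8, SD, n = 2). The translational repressor gene gld-1 was near the lower end, with 100.9 and 87.0 (94.0 ± 9.80, SD, n = 2). Genes for the enzyme and its partner were thus both bound, and all 4 of these genes were higher in replicate 1.

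The other members of that group, fbf-1, fbf-2 and daz-1, had no promoter summit in the conservative set, nor did glp-1. Against a background of 10.9% bound, this is the state of most genes. The neighbours fbf-1 and fbf-2 encode nearly interchangeable PUF proteins that keep germ cells in the stem cell state. In replicate 2 they reached 39.4 and 42.1, below the 50.4 of the median gene with a ranked summit, and in replicate 1 only fbf-2 was listed, at 8.46. The fbf-2 summits lay at -452 bp in replicate 1 and -92 bp in replicate 2. Signal at glp-1, the receptor through which the niche signals to stem cells, was 50.5 at -394 bp and 60.1 at -585 bp, close to those medians. At daz-1, a DAZ family gene needed for oogenesis, neither ranked list held a summit in the window.

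Regulators of oocyte growth and maturation were bound at 5 of 8 genes. The PUF genes puf-11 and puf-3, whose products act in oocytes, had 205 and 269 (237 ± 45.3, SD, n = 2) and 164 and 214 (189 ± 35.7, SD, n = 2). Both were higher in replicate 2 than in replicate 1. At cgh-1, which encodes a DEAD-box helicase of RNA granules in the germline, signal was 214 and 176 (195 ± 27.1, SD, n = 2). Its partner in those granules, the gene car-1, had 85.1 and 101.6, and its conservative signal was the lowest of the bound members. The car-1 value of replicate 1 comes from a summit at -418 bp from the start. The conservative summit and that of replicate 2 lay at -745 and -750 bp, so no mean is given.

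The CCCH zinc finger genes oma-1 and oma-2, which act redundantly in oocyte maturation, differed from each other. Signal at oma-2 was 102.1 and 134.7 (118 ± 23.0, SD, n = 2), and no summit of either ranked list fell in the window of oma-1. At puf-5, a further PUF gene of oocytes, the values were 47.1 at 102 bp downstream of the start and 110.4 at -131 bp. A summit entered the larger set from both samples, at a signal of 147, but not the conservative one. At lin-41, whose product restrains oocyte maturation, only replicate 2 had a summit, at 5.42.

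Of the genes that act on maternal mRNA in the early embryo, 3 of 7 were bound. The count was also 3 in the thresholded list of replicate 1, with spn-4 in place of mex-5, and 5 in that of replicate 2, where mex-6 and spn-4 were added. The strongest of all members was pos-1, a CCCH zinc finger gene of posterior cell fate, with 215 in replicate 1 and 326 in replicate 2 (270.3 ± 78.6, SD, n = 2). The KH domain gene mex-3 went the other way, with 204 and 130.3 (167 ± 51.8, SD, n = 2). At mex-5, whose CCCH protein sets up the polarity of the zygote, signal was 95.5 and 142 (119 ± 33.2, SD, n = 2). Its close relative mex-6 had 108 in replicate 2, where it passed the threshold of that sample, and no summit in replicate 1.

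The RRM protein gene spn-4 was the strongest member outside the conservative set in replicate 1. It had 154 and 113, passed the threshold in each sample's own list and lay in the larger set, at 244. The highest summits of the 2 replicates were at -370 and -235 bp from its start, so no mean is given. At nos-2, a Nanos gene of primordial germ cells, signal was 42.6 and 43.5. At pie-1, which keeps transcription off in germline blastomeres, it was 35.9 at -635 bp and 31.5 at 81 bp downstream of a start. These values were below the medians of genes with a ranked summit.

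Both bound egg surface genes had signal over 199 in each replicate. Signal at egg-1, which encodes an oocyte membrane protein needed for fertilisation, was 199 in replicate 1 and 243 in replicate 2 (221.3 ± 31.4, SD, n = 2). At rme-2, the gene of the yolk receptor, it was 206 and 237 (221.6 ± 21.9, SD, n = 2). Each of these genes held 2 conservative summits in its window, the second at 130 for egg-1 and 178 for rme-2, and no other member had more than 1. These are 13.3% of the bound members, near the 10.5% of all bound genes with 2 or more.

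The remaining egg surface genes had no ranked summit in replicate 1. In replicate 2, egg-2, the close relative of egg-1, had 44.2. The eggshell proteoglycan genes cpg-1 and cpg-2 had 5.48 and 202 there. The cpg-2 summit stood 666th among all genes in replicate 2 and entered the larger set at 333. The cpg-1 summit passed the threshold of replicate 2 at a signal far below the median of that list, 144. Values of 1 replicate have no spread.

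Among the meiotic chromosome genes rad-51, which encodes the strand exchange protein of recombination, was the bound one, with 188 in replicate 1 and 124 in replicate 2 (156 ± 45.1, SD, n = 2). At spo-11, whose product makes the double-strand breaks, signal was 97.7 at a summit -552 bp from the start in replicate 1 and 40.3 at -32 bp in replicate 2, and it passed the threshold in replicate 1 only. The crossover gene msh-5 had 58.9 at -659 bp and 72.9 at -417 bp. At syp-2, which encodes a central region protein of the synaptonemal complex, the values were 34.1 at -763 bp and 163 at 150 bp downstream of the start, and the latter summit entered the larger set. In these 3 genes the replicates had their highest summits at different sites, so no mean is given.

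The other structural genes had values near or below the medians of the ranked lists, 52.0 and 50.4. At syp-1, a second central region gene, only replicate 1 had a summit, at 60.9. Among the genes of axis proteins with HORMA domains, him-3 had 53.5 at -877 bp and 63.7 at -685 bp, and htp-1 had 56.4 and 55.6, both about 190 bp downstream of its start. The third, htp-3, had 61.5 in replicate 2 alone. The 4 zinc finger genes of the pairing centres lie next to each other on chromosome IV. Of these, zim-1 had 55.1 at -311 bp and 35.4 at -958 bp, and zim-2 had 36.2 and 43.5. In replicate 2 alone, zim-3 and him-8, the latter for the X chromosome, had 23.2 and 27.2. The nearest conservative summit to any start of these genes lay within the cluster, inside zim-1, 1656 bp downstream of a start of that gene.

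**Figure D3:**
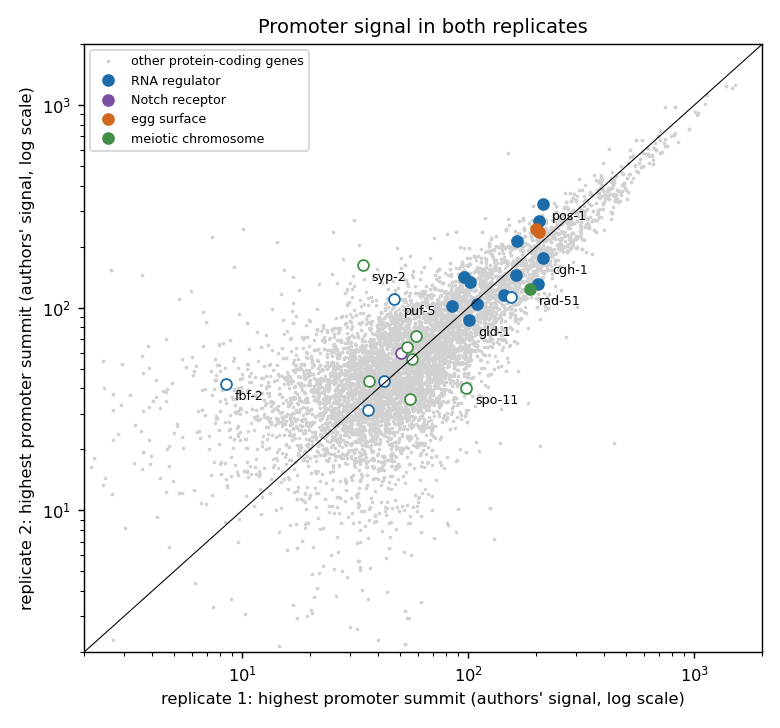
Highest promoter summit per gene in replicate 1 (horizontal) against replicate 2 (vertical), as the authors' signal on log axes, for the 7526 protein-coding genes listed in both, with members coloured by class, filled when bound in the conservative set. The line marks equal values. The filled points keep to it within 2-fold, and syp-2 and fbf-2, whose summits differ in position between the replicates, lie far above it. Filled genes come from a set thresholded on reproducibility over these same samples, so their closeness is not independent of that choice.

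The highest values of the 2 replicates were within 2-fold at each of the 15 bound members, as at 98.3% of the 2152 bound genes listed in both. The conservative set was thresholded on reproducibility over these same samples, so such closeness is in part fixed by how bound genes were defined. At car-1 these values come from summits at different places, so its ratio does not compare the replicates at 1 site. Signal was higher in replicate 1 at 7 of them and in replicate 2 at 8. On the log2 scale, replicate 1 over replicate 2 had a median of -0.20 (SD 0.41, n = 15 genes) over the members and 0.08 (SD 0.42) over all bound genes. Ratios ran from -0.60 at pos-1 to 0.64 at mex-3. The ratios run across genes within 1 set of samples, and genes are not independent replicates. The 10 bound members that passed the threshold in each sample's own list were cgh-1, egg-1, gld-3, mex-3, oma-2, pos-1, puf-3, puf-11, rad-51 and rme-2. They are 66.7% of the 15, against 67.4% over all bound genes.

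All 15 highest summits lay upstream of the nearest start of their gene, as did 92.9% over all bound genes. The median distance was -278 bp for the members and -251 bp for all bound genes, and 13 of the 15 lay within 500 bp of the start (86.7%, against 77.7%). The summit nearest to its start was that of nos-3, at -11 bp. The summits of cgh-1 and car-1 were the most distant, at -681 and -745 bp. At gld-2 and mex-3 the nearest start is an internal one, and both summits lay downstream of the first start of the gene. At mex-3 the distance of -322 bp was from that start, and with the first start of each gene alone mex-3 was not bound, leaving 14 members (10.1% of all genes).

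**Figure D4:**
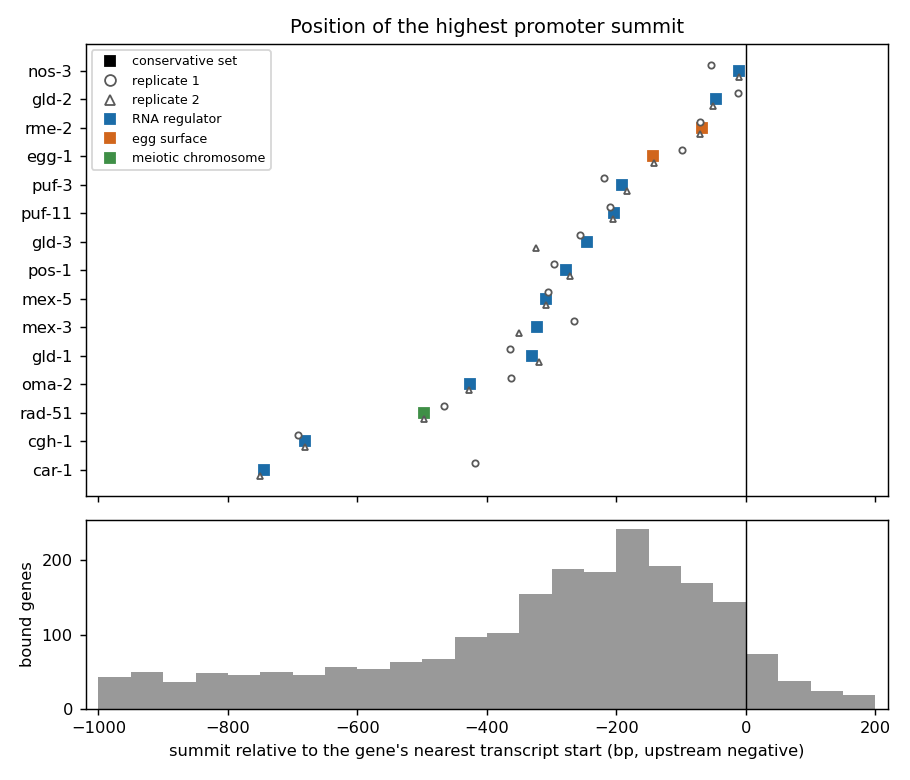
Position of the highest promoter summit relative to the nearest transcript start of the gene, in bp, for the 15 bound members (squares, with circles and triangles for the ranked summit of replicates 1 and 2), above a histogram of the same distance over all 2184 bound genes. All member squares lie between -745 and -11 bp, and the replicate 1 circle of car-1 stands apart at -418 bp.

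Some member peaks also lay in the window of a neighbouring gene, so their assignment is not unique. The summits of 6 of the 15 bound members (40%) were shared in this way, against 49.0% over all bound genes. In 4 of them the member had the nearer start, and in mex-5 and car-1 the other gene did. The mex-5 summit at -308 bp was at -222 bp from rec-8, which encodes a meiotic cohesin subunit and is transcribed the opposite way. That of pos-1 was at -326 bp from vha-18, a vacuolar ATPase gene, and that of car-1 was nearer to coa-5, at -276 bp. Those of gld-3, nos-3 and puf-3 were shared with T07F8.4 at -365 bp, Y53C12B.1 at -227 bp and afmd-2 at -337 bp. When each summit went only to the gene with the nearest start, 13 members stayed bound, and car-1 and mex-5 did not, against 8.31% of all genes.

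The windows of puf-3 and puf-11 were much alike in sequence. With 100 bp on each side of the summits, 157 of 173 aligned bases were identical (90.8%), and the longest run shared letter for letter was 32 bp. Gaps are left out of the percentage, which was high for other pairs too. It was 81.7% for car-1 and gld-3 (125 of 153), and 100% over only 8 aligned bases for nos-3 and oma-2. Among all 105 pairs of bound members the median of that run was 9 bp and the next highest value after this pair was 21 bp, between car-1 and nos-3. With the related genes puf-5, puf-6 and puf-7 the run was 10 to 14 bp, although puf-6 and puf-7 were bound too, at conservative signals of 237 and 333. The puf-7 summit also lay in the window of snpc-3.1. How reads that match both sites were treated is not stated, so how far either value rests on reads from the other site was not tested.

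Word matches within 100 bp of the summits were few. The comparison windows were taken at every conservative summit, inside or outside promoter windows, while all member windows lie at promoter summits. The E2F-type word TTCCCGC, read on either strand, was in 3 of 15 member windows (20%), those of puf-3, puf-11 and egg-1, against 5.23% of all 3291 conservative windows. The windows of puf-3 and puf-11 share that stretch, so they are not separate occurrences. The word TTTGAA was in 2 (13.3%, against 28.9%), TTCGAA in 1 (6.67%, against 12.1%), and CCACGT in 1 (6.67%, against 8.33%), that of cgh-1. GAGAGA was in 2 (13.3%, against 32.4%) and TATAAA in 2 (13.3%, against 11.6%). The median GC content was 39.3% over member windows and 44.3% over all. A match is a description of the letters and not a binding site.

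Other genes of the same processes are set beside the class shares. These lists, like the classes, were chosen with earlier results of these data known, so they are not independent of the data. Of 39 further germline RNA regulators 18 were bound (46.2%, Wilson 95% interval 31.6 to 61.4). The strongest were mog-4, an RNA helicase gene of the switch from sperm to oocytes, with 1132 and 1114 (1123 ± 12.7, SD, n = 2), and larp-1, with 812 and 709 (761 ± 72.6, SD, n = 2). Next came ifet-1, whose product is a translational repressor found with CGH-1 and CAR-1, with 553 and 670.2 (612 ± 83.0, SD, n = 2), and atx-2, the ataxin-2 homologue, with 454 and 345 (399 ± 77.3, SD, n = 2). Their summits were shared with wip-1, rps-1 and ecps-1 for larp-1, ifet-1 and atx-2, while that of mog-4 was in no other window.

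Of 23 further genes of the egg surface and eggshell 9 were bound (39.1%, interval 22.2 to 59.2). The oocyte pseudophosphatase genes egg-5 and egg-4 had 551 and 472 (511 ± 55.9, SD, n = 2) and 253 and 276 (264 ± 16.7, SD, n = 2). The eggshell permeability gene perm-1 had 214 and 203 (209 ± 7.57, SD, n = 2), and perm-3 had 196 and 202 (199 ± 4.22, SD, n = 2). The perm-3 summit also lay in the window of swsn-6. The chitin synthase gene of the eggshell, chs-1, was bound as well, at 197 and 162.

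Further meiotic chromosome genes were bound at 15 of 50 (30%, interval 19.1 to 43.8), a larger share than the 1 of 12 above, though the intervals overlap. The share over all genes was 10.9%. Since the lists were chosen with earlier results known, the intervals are no test against that share. The strongest by conservative signal, at 617 and 480, were syp-4, a central region gene, with 317 and 305 (311 ± 8.65, SD, n = 2), and coh-4, a meiotic kleisin gene, with 245.5 and 234 (239.6 ± 8.38, SD, n = 2). Next, at 454 and 424, the genes brc-1, the BRCA1 homologue, and zhp-2, which encodes a RING finger protein of meiosis, had 287 and 203 (245 ± 59.4, SD, n = 2) and 219 and 213 (216 ± 4.10, SD, n = 2). The summits of syp-4, coh-4 and zhp-2 also lay in the windows of H27M09.5, pid-5 and lotr-1. With each summit given only to the gene with the nearest start, 11 of the 50 stayed bound. Of the central region genes, syp-4 and syp-6 were bound, the latter at a summit shared with mei-2, and syp-1, syp-2, syp-3 and syp-5 were not. At syp-5 replicate 1 had a ranked summit in the window, at 292, and replicate 2 had none there.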

How the data were processed

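Peak lists of chromatin immunoprecipitation from 2 samples were used. The authors deposited, on ce11, 2 lists per sample (ranked, and thresholded on reproducibility) and 2 sets over both samples (larger, and conservative), per the file headers. Which aligner and peak caller they used is not given in the sources used here. Each peak has a signal value from the authors' peak caller, unscaled as far as stated. The score, deposited as a form of the irreproducible discovery rate, decides no result. Lists hold no read counts, so depth is unknown. Summits (peak start plus offset) were assigned with Ensembl release 115 on WBcel235, of whose annotated start codons 99.9% read ATG in the RefSeq genome used for sequences. Assignment was checked on simulated summits. Members, classes and lists were chosen with earlier results of these data known. Named genes are all members, the 4 strongest bound genes of each further list, and genes sharing a named gene's summit. A few more (chs-1, puf-6, puf-7, syp-3, syp-5 and syp-6) were chosen after their values were seen. Of 116 further genes fixed by name, 112 were in the annotation. No test was run, since there is 1 group. Python 3.11.15, numpy 2.4.6, pandas 2.3.3, statsmodels 0.14.6, Biopython 1.88 and matplotlib 3.10.9 were used.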

Additional observations from a re-analysis of the deposited data

How the results depend on the processing

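Counts of bound members moved little between most choices. Of the 18 in the larger set 14 were shared with the conservative count. With the list of 1 replicate alone the count was 15 to 17, and 12 or 13 of the 15 were shared. Without replicate 1, gld-1, gld-2 and nos-3 were lost, and without replicate 2, car-1 and mex-5. Keeping conservative peaks at or above the median signal left 9 members and 6 RNA regulators. Without 1 replicate the egg surface count was 2 to 4, 4 being the list of replicate 2, and the meiotic count was 2 in either list and 2 in the larger set. The added meiotic gene was syp-2 in the larger set and in replicate 2, and spo-11 in replicate 1. No count for the further gene lists moved by over 1.5 times. The median signal of bound members over that of all bound genes was 1.01, and it was 1.13 in the larger set, 1.15 with the nearest gene only, and 0.904 to 1.01 without 1 replicate. The median distance of -278 bp was -253 bp in the larger set and -272 to -266 bp without 1 replicate. The cause of these shifts was not tested. Of conservative peaks 237, that of car-1 among them, were not in the larger set. No paired analysis was possible because there is 1 group and no test. Depth is unknown, so a missing summit does not show that the protein is absent.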
